A study of Mus musculus with 3 samples.

Results

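A set of 9 genes that hold T cells in tissue or let them leave it was compared between CD4+ T cells from tumours and from lymphoid organs. The set comprised Cd69, the sphingosine-1-phosphate (S1P) receptor genes S1pr1 and S1pr4, the oxysterol receptor gene Gpr183, the RGS genes Rgs1, Rgs2, Rgs10 and Rgs16, and the transcription factor gene Zfp683. Members were taken by gene symbol, and 8 of the 9 had a row among 23337 symbols. Zfp683, which encodes Hobit, had no row and was not analysed here. All cells were labelled Th1, the helper subset defined by T-bet and interferon gamma. The mice were C57/Bl6j, wild type and 7 weeks old, in both groups. The tumour group was 1 library from B16-F10 tumours, a transplantable melanoma of the same strain. The lymphoid group was 2 libraries, titled spleen, whose tissue label also names lymph nodes and draining lymph nodes. Whether animals were separate or pooled is not in the labels, so each p-value reflects library-to-library spread that could be technical alone.

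T cells leave lymphoid organs and tissues by following S1P, which is high in blood and lymph and low inside tissue. S1PR1 senses that gradient through inhibitory G proteins, and CD69, a membrane protein induced by activation, binds S1PR1 and takes it off the cell surface. RGS proteins speed up the shut-off of G protein alpha subunits and so dampen chemoattractant receptors. High CD69 and RGS1 with low S1PR1 transcript is the usual description of resident T cells, in which the transcription factor KLF2, an activator of S1pr1, is low.

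Values are FPKM (fragments per kilobase of transcript, relative to sequencing depth; the unit was inferred), divided by median-of-ratios factors of 0.58 for the tumour library and 1.29 and 1.33 for the lymphoid libraries, and are called levels below. Before scaling, 77.8% of the tested genes were called lower in the tumour library and 4.74% higher, and with library totals 2.85% were called lower and 44.6% higher, so the choice of scaling matters for every direction given here. Changes are differences of log2(level + 1), which understates changes of low genes. The test was limma over the 9800 genes that averaged 1 FPKM or more, with Benjamini-Hochberg adjustment over all of them and calls at an adjusted p under 0.05. Its estimate of spread rests on the pair of lymphoid libraries, with 1 residual degree of freedom for each gene. Limma draws that spread towards the spread of genes of similar level, so an SE is not a gene's own lymphoid spread alone. The lone tumour library is taken to vary as the lymphoid libraries do. Estimated depths were 3240000 fragments for the tumour library and 11410000 and 15390000 for the lymphoid libraries, so a 2 kb transcript at 1 FPKM stands for 6.48 fragments in the tumour library and 22.8 and 30.8 in the lymphoid libraries. Depth and tissue cannot be told apart in this design. Defining T cell genes were high in all libraries. Cd4 was at 73.9 in the tumour library, against 67.9 and 59.3 in the lymphoid libraries, and limma called 0 of 15 T cell marker genes (0 also at an unadjusted p under 0.05). Cd3g, the most abundant of them, was at 144.4 in the tumour library and 187.6 and 215.6 in the lymphoid libraries. Tbx21, which encodes T-bet, was at 12.9 in the tumour library and 18.0 and 20.2 in the lymphoid libraries (limma adjusted p = 0.0879).

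The 8 measured genes differed in direction and size of change. In the tumour library the RGS genes Rgs1 and Rgs2 were higher, Cd69 lay between the lymphoid values, and S1pr1 lay above both lymphoid libraries without passing the test. S1pr4, Gpr183 and Rgs10 were not called. Of the 7 tested genes 2 were called higher, where 12.7% of all tested genes were, and 0 were called lower by limma, where 9.17% were. At an unadjusted p under 0.05 the lower count was also 0. With the tumour library's counting error added, both higher calls held, where 3.22% of genes were called higher and 0.268% lower. The median change of the 7 was 0.27, against -0.01 for all tested genes. Rgs16, the remaining gene, lay under the expression filter and is described without a test.

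**Figure D1:**
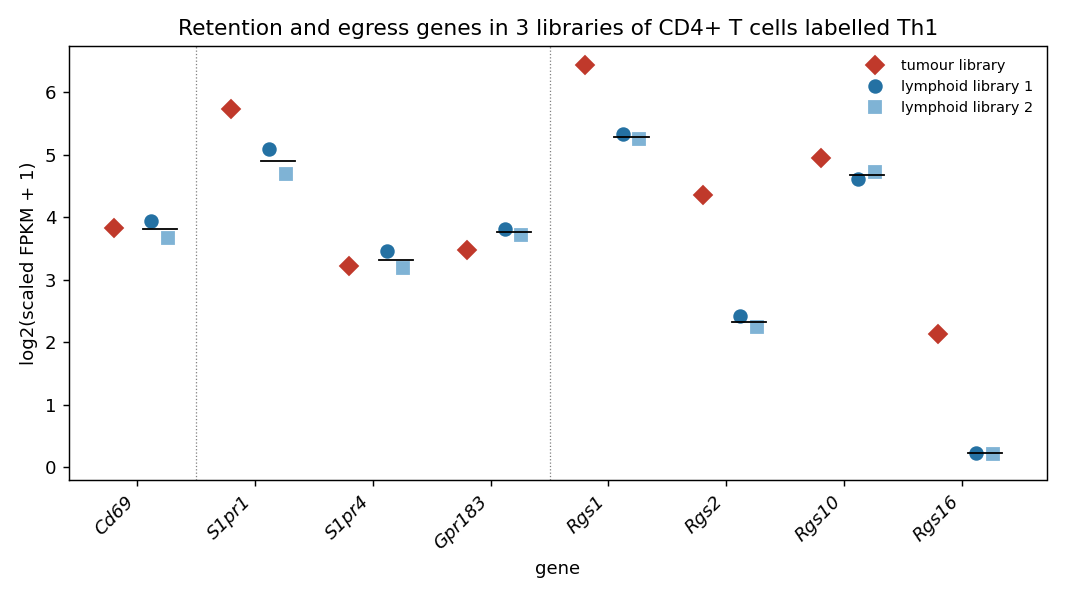
Levels as log2(scaled FPKM + 1) of the 8 measured genes, with the tumour library as a red diamond, the lymphoid libraries as blue symbols and their mean as a bar; dotted lines part Cd69, the chemoattractant receptors and the RGS genes. Rgs2 was at 19.5 in the tumour library and at 4.34 and 3.74 in the lymphoid libraries, while the Cd69 value of the tumour library lay between the lymphoid values.

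Cd69 (ENSMUSG00000030156.5, chromosome 6, 129267325 to 129275436, GRCm38) was at 13.2 in the tumour library, against 14.4 and 11.7 in the lymphoid libraries. The tumour value thus fell between the lymphoid values. The change was 0.03, with a 95% interval of -0.45 to 0.50 (SE 0.19, limma adjusted p = 0.941). That interval leaves room for changes of either sign, and the tumour value rested on about 28 fragments. The exact Poisson interval of the tumour level, which covers counting error only, ran from 8.83 to 19.2. Scaling decided the direction, since the change was -1.06 as deposited (limma adjusted p = 0.00497) and 0.75 with library totals (limma adjusted p = 0.0514). A quantity that no scaling touches is the ratio of Cd69 to the T cell receptor chain gene Cd3e, which was 0.119 in the tumour library and 0.114 and 0.110 in the lymphoid libraries. This ratio and the others below were picked with the values in view. The direction of the Cd69 ratio depended on the marker gene. Against Cd3g it was higher in the tumour library than in both lymphoid libraries, and against Cd4 it was lower than in both.

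The receptors that steer cells out of tissue gave mixed values. S1pr1 (ENSMUSG00000045092.8, chromosome 3, 115710433 to 115715072), the main exit receptor of T cells, was at 52.2 in the tumour library, against 33.0 and 25.0 in the lymphoid libraries. The tumour library lay above both, as it did for 41.3% of all tested genes. The change of 0.84 (95% interval 0.27 to 1.41, SE 0.23) did not pass the test (limma adjusted p = 0.0521). It crossed the threshold with upper-quartile scaling (limma adjusted p = 0.0495), with scaling on T cell marker genes (limma adjusted p = 0.043), without a mean-variance trend (limma adjusted p = 0.046) and with library totals (limma adjusted p = 2.72e-05). The first 3 of these called 12.6%, 13.8% and 12.1% of all tested genes higher. As deposited the sign turned, with a change of -0.31 (limma adjusted p = 0.235), and adding the tumour library's counting error gave an adjusted p of 0.188 in limma. The lymphoid libraries themselves differed by 0.39 for this gene, the widest gap among the 8. S1pr1 was 3.95 times the FPKM of Cd69 in the tumour library, against 2.28 and 2.14 times in the lymphoid libraries. It was 6.27 times the FPKM of S1pr4 in the tumour library, against 3.31 and 3.09 times in the lymphoid libraries. These ratios do not depend on scaling. No ratio was tested, and a ratio does not say which gene of a pair differed.

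S1pr4 (ENSMUSG00000044199.6, chromosome 10, 81497747 to 81500132), an S1P receptor found mainly on blood and immune cells, was at 8.34 in the tumour library, against 9.97 and 8.09 in the lymphoid libraries. The groups overlapped, and the change was -0.10 (95% interval -0.56 to 0.36, limma adjusted p = 0.743). It was 0.60 with library totals (limma adjusted p = 0.108) and -1.13 as deposited (limma adjusted p = 0.00385). Gpr183 (ENSMUSG00000051212.8, chromosome 14, 121952551 to 121965195), also known as EBI2, guides lymphocytes towards oxysterols at the borders of lymphoid zones. It was at 10.1 in the tumour library, against 13.0 and 12.2 in the lymphoid libraries. The tumour value lay below both, as for 42.6% of all tested genes, and the change of -0.29 was not called (95% interval -0.70 to 0.11, limma adjusted p = 0.248). With library totals the change was 0.42 (limma adjusted p = 0.266), and as deposited it was -1.36 (limma adjusted p = 0.0027). Gpr183 lies inside Ubac2, a gene on the other strand that was at 8.32 in the tumour library and 14.9 and 9.99 in the lymphoid libraries. The library kit marks strand, but whether the counting used it is not given in the sources used here.

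Rgs1 (ENSMUSG00000026358.13, chromosome 1, 144242296 to 144249242), a damper of chemokine receptor signals in lymphocytes, was the most abundant of the 8 genes per kilobase in all 3 libraries. Its level was 85.3 in the tumour library, against 39.1 and 37.0 in the lymphoid libraries (mean 38.1 ± 1.45, SD, n = 2). The tumour library stood 2.18 and 2.30 times above them. The log2 change was 1.14 with SE 0.18 (limma adjusted p = 0.0122), it rested on about 614 tumour fragments, and with counting error added the limma adjusted p was 0.0436. As deposited Rgs1 was at 49.4 FPKM in the tumour library and 50.6 and 49.4 FPKM in the lymphoid libraries (change -0.02, limma adjusted p = 0.934). The rise is therefore relative to the median gene. Set against Cd69 with no scaling, Rgs1 had 6.45 times its FPKM in the tumour library and 2.71 and 3.18 times in the lymphoid libraries.

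Rgs2 (ENSMUSG00000026360.9, chromosome 1, 143999338 to 144004161), which acts mostly on Gq-type subunits and is induced by activation, had the largest called change. Its level was 19.5 in the tumour library, against 4.34 and 3.74 in the lymphoid libraries (mean 4.04 ± 0.426, SD, n = 2). It stood 4.51 and 5.23 times above them, on about 66 tumour fragments. The log2 change was 2.03 with SE 0.16 (limma adjusted p = 0.00134; with counting error added, 0.0151). Rgs2 was called higher under all 5 scalings tried, including as deposited, where the log2 change was 0.97 (limma adjusted p = 0.00427). It was also called among genes of at least 5 FPKM on average, with pseudocounts of 0.1 and 5 and with rows of a symbol summed, settings that called 4.13%, 11.6%, 13.5% and 12.7% of genes higher. Its rank among the tested genes was the 87.5 percentile in the tumour library, against the 45.8 and 40.8 percentiles in the lymphoid libraries.

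Rgs10 (ENSMUSG00000030844.11, chromosome 7, 128373621 to 128418758), a small RGS protein of immune cells, was at 29.7 in the tumour library, against 23.3 and 25.6 in the lymphoid libraries. The change of 0.27 was not called (95% interval -0.17 to 0.72, limma adjusted p = 0.32), and it was -0.86 as deposited (limma adjusted p = 0.00829) and 1.03 with library totals (limma adjusted p = 0.00908). Rgs2 amounted to 0.658 of the FPKM of Rgs10 in the tumour library and to 0.186 and 0.146 in the lymphoid libraries.

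Rgs16 (ENSMUSG00000026475.7, chromosome 1, 153740349 to 153745468) encodes an RGS protein induced in activated T cells. Its level was 3.38 in the tumour library, against 0.174 and 0.164 in the lymphoid libraries, or 19.4 and 20.6 times higher. These levels correspond to about 14.8 fragments in the tumour library and 6.01 and 7.87 in the lymphoid libraries. The exact Poisson interval of the tumour level was 1.91 to 5.64. Many low genes read higher in the tumour library. Of 1454 untested genes with a mean of 0.5 to 1 FPKM, 55.5% were at least 2-fold higher than in each lymphoid library, with a median ratio of 2.77, and the Rgs16 ratio exceeded that of 86.0% of them. That band is cut on the mean of all 3 libraries, so a high tumour value can itself bring a gene into it, as for Rgs16. The share, the median ratio and the rank of Rgs16 are thus set in part by the filter. Odorant and vomeronasal receptor genes, which T cells are not thought to use, averaged 0.662 in the tumour library and 0.0583 and 0.10 in the lymphoid libraries. A few genes carry much of that mean, which without the top 2% was 0.266 in the tumour library and 0.010 and 0.0436 in the lymphoid libraries. Rgs16 lay above 99.2% of these 1440 genes in the tumour library. The part of this raised floor in the Rgs16 value was not tested. With no filter limma called Rgs16 (adjusted p = 0.0118), but that fit called 27.3% of all genes higher. The annotated antisense gene Gm28513 overlaps Rgs16.

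Promoter windows are shown for Rgs2 and Rgs16, the members with the largest relative change, and for Rgs10, an RGS member that was not called. They are the 250 bases before the RefSeq start (GRCm38.p6), at chr1:144004150-144004399 on the minus strand for Rgs2, chr1:153740103-153740352 on the plus strand for Rgs16 and chr7:128418173-128418422 on the minus strand for Rgs10. The Rgs10 window lies inside the gene as GENCODE bounds it, because the RefSeq start used here is downstream of the outermost GENCODE start. RefSeq windows were found for 5 of the 8 genes, namely Rgs2, Rgs16, Rgs10, S1pr4 and Gpr183. Cd69, S1pr1 and Rgs1 had no window, so the called gene Rgs1 is not in this comparison. Capitals mark 3 motifs on either strand. These are TGACG, which is the core of the cyclic AMP response element and is bound by CREB-type factors, and CCAAT, the box bound by the factor NF-Y. The third is TAAAAG, which resembles a TATA box and is where the transcription machinery may be placed.
Rgs2: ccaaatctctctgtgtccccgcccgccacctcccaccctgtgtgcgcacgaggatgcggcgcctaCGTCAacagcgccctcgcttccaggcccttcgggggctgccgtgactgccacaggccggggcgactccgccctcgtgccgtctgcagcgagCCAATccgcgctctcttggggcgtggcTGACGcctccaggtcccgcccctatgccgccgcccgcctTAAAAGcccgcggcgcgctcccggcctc
Rgs16: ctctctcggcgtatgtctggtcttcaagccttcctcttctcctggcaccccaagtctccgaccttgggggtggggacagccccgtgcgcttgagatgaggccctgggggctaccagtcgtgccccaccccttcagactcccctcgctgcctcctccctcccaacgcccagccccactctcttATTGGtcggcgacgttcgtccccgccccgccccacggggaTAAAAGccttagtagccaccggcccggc
Rgs10: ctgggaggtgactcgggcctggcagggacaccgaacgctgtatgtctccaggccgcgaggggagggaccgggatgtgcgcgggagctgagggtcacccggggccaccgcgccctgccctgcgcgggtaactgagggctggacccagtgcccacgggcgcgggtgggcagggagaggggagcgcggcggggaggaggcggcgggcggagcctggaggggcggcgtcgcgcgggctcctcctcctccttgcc
The windows of Rgs2 and Rgs16 each held the TATA-like run, beginning 28 bases before the start, and 1 CCAAT box, beginning 94 bases before it in Rgs2 and 68 bases before it in Rgs16. The TATA-like run occurred in 13.6% of 32851 windows of this length and the CCAAT box in 33.8%. Rgs2 also held TGACG at 2 places, beginning 185 and 67 bases before the start, a motif in 17.8% of promoters. None of these 3 motifs was found in the Rgs10 window. Searches on both strands for TGANTCA (the AP-1 site, in 6.7% of promoters) found 0 matches in all 5 windows, and GGAAA (the NFAT core, in 55.6%) was found in S1pr4 alone. CACCC (a KLF-type site, in 52.0%) had 1 match in Rgs2, 3 in Rgs16, 2 in Rgs10 and 1 in S1pr4. The Gpr183 window, of a gene that was not called, held the TATA-like run 2 times, beginning 184 and 151 bases before the start. The motifs were picked after values and windows had been seen, and a match says nothing about binding.

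By fold alone, Rgs1 and Rgs2 were at least 2-fold higher than in each lymphoid library among the 7 tested genes, where 8.76% of all tested genes were. None of the 7 was at least 2-fold lower than in each, where 6.32% of all tested genes were. Against lymphoid library 2 alone, S1pr1 also passed 2-fold, at 2.09 times, while it was 1.58 times higher than lymphoid library 1. The order of levels per kilobase in the lymphoid libraries was Rgs1, S1pr1, Rgs10, Cd69, Gpr183, S1pr4, Rgs2 and Rgs16. Neighbours S1pr1 and Rgs10 overlapped there, as did Cd69 and Gpr183. In the tumour library Rgs2 stood above Cd69, Gpr183 and S1pr4.

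**Figure D2:**
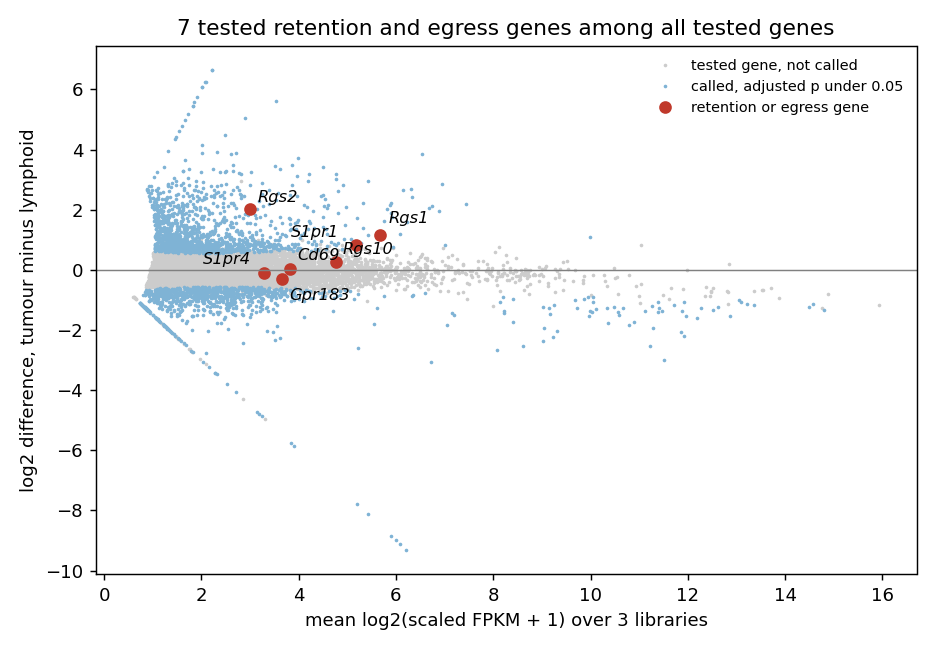
Each point is a tested gene, with its mean log2(scaled FPKM + 1) over the 3 libraries across and its log2 difference, tumour minus lymphoid, upwards; called genes are blue and the 7 tested retention and egress genes are red. Rgs2 at 2.03 and Rgs1 at 1.14 lay among called genes, and the 5 others in the uncalled band, S1pr1 at its upper edge.

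**Figure D3:**
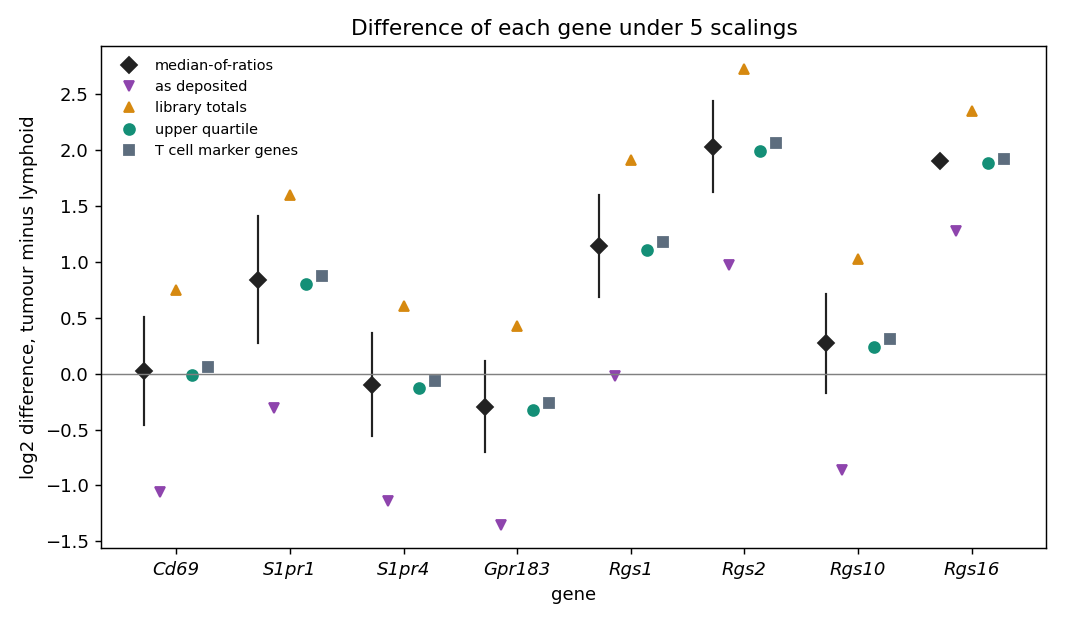
Log2 difference, tumour minus lymphoid, of each gene under 5 scalings, with the limma 95% interval drawn for median-of-ratios only (none for Rgs16, which was not tested). Rgs2 and Rgs16 lay above 0 under all 5, Rgs1 was at -0.02 as deposited, and Cd69, S1pr1, S1pr4, Gpr183 and Rgs10 had values on both sides of 0.

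Among the other RGS genes, Rgs20 was higher. Of 17 listed, 16 had a row and 4 were tested, of which limma called 1 higher and 0 lower (1 and 1 at an unadjusted p under 0.05). Beside the calls of this list and of those below stand 12.7% of all tested genes called higher and 9.17% lower. Rgs20, which acts on the Gz class of inhibitory subunits, was at 25.2 in the tumour library, against 5.28 and 3.65 in the lymphoid libraries (log2 change 2.28, SE 0.22, limma adjusted p = 0.00242; with counting error added, 0.0157). It was called higher under all 5 scalings. Rgs20 overlaps Atp6v1h on the other strand, which was at 9.65 in the tumour library and 8.36 and 7.90 in the lymphoid libraries. Rgs3 was at 22.6 in the tumour library and 23.5 and 26.9 in the lymphoid libraries, and was not called. Rgs14 and Rgs19 were not called either, with Rgs19 at 11.1 in the tumour library and 16.4 and 14.8 in the lymphoid libraries. The 12 others were not tested, and among them Rgs5 at 2.06 and Rgs9 at 1.94 had the highest tumour levels, against 0.214 or less in the lymphoid libraries. Many low genes read higher in the tumour library, in part because its value counts towards the mean by which they were chosen. Rgs2, Rgs13, Rgs1 and Rgs18 follow each other on chromosome 1, with 134.5 kb between Rgs2 and Rgs13 and 64.9 kb between Rgs13 and Rgs1. Rgs13, which lies between the called pair, was listed at 0 in the tumour library and in lymphoid library 1 and was at 0.033 in lymphoid library 2. Rgs18 was listed at 0 in the tumour library and was at 0.0737 and 0.235 in the lymphoid libraries. Rgs8, 40.0 kb from Rgs16, was at 0.883 in the tumour library, against 0 and 0.0319 in the lymphoid libraries.

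**Figure D4:**
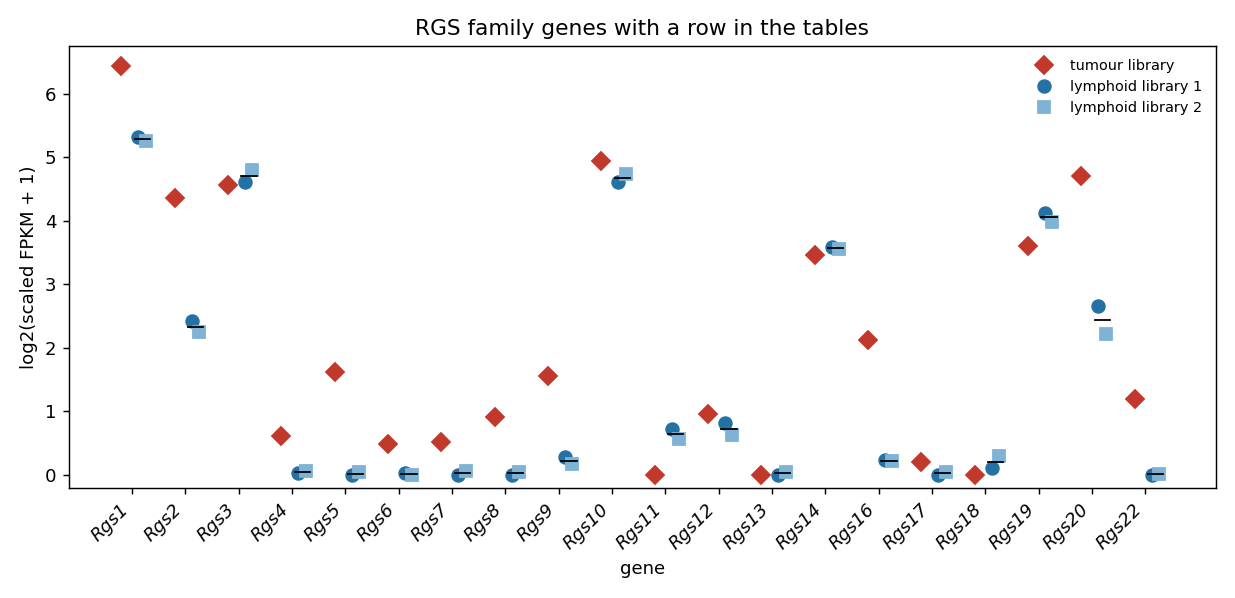
Levels as log2(scaled FPKM + 1) of the 20 RGS genes with a row, with the tumour library as a red diamond, the lymphoid libraries as blue symbols and their mean as a bar. Rgs1, Rgs2 and Rgs20 were called higher in the tumour library, Rgs3, Rgs10, Rgs14 and Rgs19 were not called, and the rest were too low to be tested.

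The rest of the S1P system had 0 calls in either direction among 9 tested of 19 genes, with a median change of -0.10 (limma, with 0 higher and 1 lower at an unadjusted p under 0.05). Sgpp1, an S1P phosphatase, was at 4.37 in the tumour library and 7.87 and 6.52 in the lymphoid libraries (limma adjusted p = 0.0601). Sgpl1, the S1P lyase that keeps tissue S1P low, was at 7.51 in the tumour library and 6.61 and 4.86 in the lymphoid libraries. Cers2, a ceramide synthase and the most abundant tested gene of the list, was at 9.70 in the tumour library, against 11.4 and 10.4 in the lymphoid libraries. S1pr5, the S1P receptor lost with S1pr1 in resident T cells, was untested at 0.84 in the tumour library and 0.0811 and 0.0382 in the lymphoid libraries, on about 4 tumour fragments. The 4 enzymes that make or break the ligand of GPR183 were all untested, with summed levels of 1.64 in the tumour library and 0.239 and 0.319 in the lymphoid libraries.

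Downstream of these receptors, 4 of 21 tested genes of G proteins, receptor kinases and arrestins were called higher by limma and 0 lower (4 and 2 at an unadjusted p under 0.05), with a median change of -0.17. Gna13, the subunit through which S1PR2 and other receptors confine cells, was at 29.2 in the tumour library, against 13.0 and 11.2 in the lymphoid libraries (log2 change 1.21, limma adjusted p = 0.0097; with counting error added, 0.0448). Grk4, a receptor kinase, was at 72.4 in the tumour library, against 4.78 and 6.36 in the lymphoid libraries (log2 change 3.49, limma adjusted p = 0.000769), and an annotated antisense gene overlaps it. Grk4 was called under all 5 scalings, while as deposited Gna13 was not called (change 0.09, limma adjusted p = 0.645). The other 2 calls, Gna15 and Grk5, ended with counting error added, and as deposited their changes were -0.35 and -0.23. Gnai2, the main inhibitory subunit used by S1PR1 and chemokine receptors in lymphocytes, was at 68.8 in the tumour library, against 78.0 and 77.3 in the lymphoid libraries, and was not called (limma adjusted p = 0.552).

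Other egress and recirculation genes had 0 higher and 1 lower call in limma among 10 tested of 11 (1 and 1 at an unadjusted p under 0.05), with a median change of -0.21. Klf2 was at 49.2 in the tumour library, against 46.7 and 43.1 in the lymphoid libraries (change 0.13, SE 0.19, limma adjusted p = 0.656). Ccr7, which brings T cells into lymph nodes and holds them there, was at 17.2 in the tumour library and 13.3 and 10.2 in the lymphoid libraries (limma adjusted p = 0.132). The lower call was Cnr2, a cannabinoid receptor, at 2.62 in the tumour library and 4.86 and 4.35 in the lymphoid libraries, and it ended with counting error added (limma adjusted p = 0.387) and with library totals (change -0.03, limma adjusted p = 0.939).

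Of 29 tissue residency genes 23 were tested, with 7 called higher, 1 called lower and a median change of 0.22 (limma, with 8 higher and 4 lower at an unadjusted p under 0.05), where 12.7% of all tested genes were called higher and 9.17% lower. Adding counting error ended the calls of Litaf, Fabp5 and Cxcr6 and left 5 of the 8, namely Cxcr4, Nr4a1, Nr4a3, Bhlhe40 and Skil, all higher. The largest rises were those of the chemokine receptor gene Cxcr4, at 30.2 in the tumour library and 2.04 and 1.58 in the lymphoid libraries, and of the nuclear receptor gene Nr4a1, at 29.0 in the tumour library and 2.13 and 2.37 in the lymphoid libraries. Both were called by limma (adjusted p = 0.000492 for Cxcr4 and 0.000486 for Nr4a1), and under all 5 scalings. Cxcr6, a chemokine receptor of resident cells, was lower, at 53.8 in the tumour library and 103.2 and 92.3 in the lymphoid libraries (limma adjusted p = 0.0357; with counting error added, 0.156; with library totals, change -0.08 and adjusted p 0.846). The integrin genes that anchor resident cells were not called. Itgae, the CD103 chain, was at 2.03 in the tumour library and 1.18 and 1.25 in the lymphoid libraries (limma adjusted p = 0.0942). Itga1, the CD49a chain, was at 3.85 in the tumour library and 3.81 and 4.07 in the lymphoid libraries. Prdm1, which encodes Blimp-1, the relative of Hobit, was at 3.20 in the tumour library and 2.51 and 2.36 in the lymphoid libraries (limma adjusted p = 0.217).

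Cd69, Rgs1 and Rgs2 also respond to cell handling, and other cell types express several members, so both were measured beside them. Immediate-early and dissociation genes had 0 calls in limma among 19 tested of 21 (2 higher and 1 lower at an unadjusted p under 0.05), with a median change of 0.07 and summed levels of 861.0 in the tumour library and 755.1 and 913.8 in the lymphoid libraries. Some differed widely between the lymphoid libraries, such as Hspa1a at 8.51 and 18.4 (SE 0.41), which limits the test. Jun was at 25.1 in the tumour library, against 41.8 and 67.5 in the lymphoid libraries (change -1.05, SE 0.31, limma adjusted p = 0.0653). Nfkbia was at 55.7 in the tumour library, against 33.1 and 35.6 in the lymphoid libraries (change 0.68, limma adjusted p = 0.0507). Atf3 of this list was too low to be tested, at 3.75 in the tumour library and 0 and 0.0245 in the lymphoid libraries. Nr4a1, given above, and Nr4a3 are also immediate-early genes, although listed with the residency genes, and both were called higher. Nr4a3 was at 20.4 in the tumour library, against 2.33 and 2.44 in the lymphoid libraries (log2 change 2.66, limma adjusted p = 0.000634). The part of cell handling in the RGS values was not tested. Hspa8, the most abundant of the immediate-early and dissociation list, was at 311.6 in the tumour library and 305.1 and 358.7 in the lymphoid libraries. Myeloid markers summed to 20.6 in the tumour library, against 12.1 and 14.4 in the lymphoid libraries, with 5 of 17 genes at 0 in the tumour library and 8 and 6 in the lymphoid libraries. Of 2 tested, Itgam was called higher and Cst3 lower, and both calls ended with counting error added (limma adjusted p = 0.0654 and 0.377). The Cst3 call also ended with library totals (limma adjusted p = 0.276). The highest in the tumour library were Cst3 at 4.67, Itgam at 3.95 and Fcer1g at 2.68. In the lymphoid libraries Cst3 was at 9.59 and 12.7 and made up most of both sums. Itgam was at 1.01 and 0.674 there, and Fcer1g at 0.235 and 0.255. The sums thus mix a lower tumour value of Cst3 with higher tumour values of other genes. C1qb, S100a8 and S100a9 were at 0 in all 3 libraries. B cell markers summed to 8.36 in the tumour library, against 2.59 and 2.41 in the lymphoid libraries, and Cd79a, Cd79b, Ms4a1 and Pax5 were at 0 in the tumour library. Of 10 genes, 5 were at 0 in the tumour library and 2 and 4 in the lymphoid libraries. Most of the tumour sum was Cd22, the only one tested and called higher, at 5.76 in the tumour library and 1.45 and 1.56 in the lymphoid libraries, followed by Fcer2a and Ebf1. CD8 T and NK cell markers summed to 37.1 in the tumour library and 38.2 and 35.9 in the lymphoid libraries, with 0 of 8 genes at 0 in the tumour library and 2 and 1 in the lymphoid libraries. Klrb1c and Klrk1 led. Klrb1c was at 13.4 in the tumour library, against 23.6 and 20.1 in the lymphoid libraries (limma adjusted p = 0.0576). Klrk1 was at 12.8 in the tumour library, against 11.8 and 11.9 in the lymphoid libraries. The near-equal sums thus join a lower tumour value of Klrb1c with higher values of others. Of 4 tested genes 1 was called higher, Cd8b1, at 4.77 in the tumour library and 0.494 and 0.783 in the lymphoid libraries. It passed the filter through the tumour library, on about 13 fragments, and its call ended with counting error added (limma adjusted p = 0.0792). Melanoma and melanocyte markers summed to 5.72 in the tumour library and 2.47 and 2.86 in the lymphoid libraries, with Mlana at 0 in all 3. Limma called 0 of 2 tested genes (1 higher and 0 lower at an unadjusted p under 0.05). Pmel led, at 1.49 in the tumour library and 0.798 and 0.835 in the lymphoid libraries. Trpm1 followed at 1.29, against 0.0344 and 0.0646, and Gpnmb at 1.09, against 1.08 and 1.24. Sox10, Dct and Tyrp1, like Pmel and Trpm1, were above both lymphoid libraries, and Tyr was below both. Of these 11 genes 3 were at 0 in the tumour library and 5 and 2 in the lymphoid libraries. Endothelial and fibroblast markers summed to 11.3 in the tumour library and 9.87 and 9.21 in the lymphoid libraries. Most of each sum was Pecam1, at 7.70 in the tumour library and 9.76 and 8.80 in the lymphoid libraries. The sums therefore say little of the other genes. Pdgfrb followed, at 1.04 in the tumour library and 0.0243 and 0.0257 in the lymphoid libraries. Cdh5 was at 0.777 in the tumour library and 0 and 0.0234 in the lymphoid libraries. Of these 13 genes 4 were at 0 in the tumour library and 8 and 1 in the lymphoid libraries. The part of other cell types in the RGS values was not tested. In bulk RNA, fewer cells that express a gene and less RNA per cell cannot be told apart.

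Genes whose values over the 3 libraries were nearest to those of Rgs2, by Euclidean distance of centred log2(level + 1) among 4727 genes of at least 5 FPKM on average, leaving out those named only by a clone or model and small RNA rows, were Tnfsf11 (distance 0.021), Ifngr1 (0.022) and P2ry10 (0.049). Nearest to Gpr183, the member with the largest negative change, were Slc27a6, Adam17 and Tmsb4x, at distances of 0.0038 to 0.0060. With 3 libraries many genes lie close to any pattern.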

How the data were processed

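RNA was measured in 3 libraries. Per the labels' protocols, total RNA from 300000 CD4+ T cells was depleted of ribosomal RNA, made into stranded libraries from 12 µl and sequenced in pairs of 75 bp. Per the submitters' processing notes, kallisto, DESeq2 and mm10 were used, with no role or version named. The authors deposited 1 value for each of 23832 gene rows, read here as FPKM because column sums differ and low values move in steps. Where a symbol had several rows, that of highest mean was used, which concerned no member.

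Size factors were medians of ratios to the geometric mean over tested genes above 0 in all libraries. Tests used limma (version 3.58.1, under R 4.3.3) with a pseudocount of 1 and a trended variance prior. The pipeline was tested on simulated data in which all libraries varied alike, so the tumour library's lower depth was not covered. Fragments were estimated from the product of FPKM and length at which most single-transcript genes coincided to within 3% (309.1 for the tumour library, 87.7 and 65.0 for the lymphoid libraries), with lengths and coordinates from GENCODE M21 (GRCm38). These depths set the counting error, while the standard errors rest on the spread between the lymphoid libraries, drawn by the prior towards that of genes of similar level.

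Members, gene lists, tests and alternatives were chosen with earlier results of these data known. Named genes were all members, for each list the 2 largest called rises and falls or the most abundant tested gene, up to 3 marker genes per other cell type with the highest tumour level, the nearest genes by distance, and 8 genes of interest, of which 1 is not reported here. Atp6v1h, Ubac2, Gna15, Grk5, Nr4a3, Atf3, Jun, Hspa1a, Nfkbia, Litaf, Fabp5, Bhlhe40, Skil, Sox10, Dct, Tyrp1, Tyr, Sgpp1, Sgpl1, Tbx21, Cd4, Rgs3, Rgs5, Rgs8, Rgs9, Rgs13, Rgs14, Rgs18 and Rgs19 were named after their values were seen, as were marker genes given at 0.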

Additional observations from a re-analysis of the deposited data

How the results depend on the processing

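As deposited, 1 member was called higher (Rgs2) and 4 lower (Cd69, S1pr4, Gpr183 and Rgs10). Of all tested genes 465 (4.74%) were then called higher and 7620 (77.8%) lower. By fold, 1 of the 7 tested members was then at least 2-fold above each lymphoid library and 3 were at least 2-fold below. The share of all tested genes past these folds as deposited was not computed, so nothing is read from these fold counts. With library totals 4 members were called higher and 0 lower, with 4370 and 279 genes called. Counts of all called genes, higher and lower, were 6362 and 512 with no filter, 211 and 191 among genes averaging 5 FPKM or more, and 313 and 26 with counting error added, against 1246 and 899 in the values reported. The sign of a member's log2 change turned as deposited for Cd69 (-1.06), S1pr1 (-0.31), Rgs1 (-0.016) and Rgs10 (-0.86), with library totals for S1pr4 (0.60) and Gpr183 (0.42), and with upper-quartile scaling for Cd69 (-0.011). It also turned for Cd69 without lymphoid library 2 (-0.12) and for S1pr4 without lymphoid library 1 (0.04). The calls of Rgs1 and Rgs2 held in each setting other than as deposited, where Rgs1 was not called. S1pr1 was called in 4 settings. Leaving out a lymphoid library removed the residual degree of freedom, so no test was possible. Of the 7 tested members 2 to 3 then stood 2-fold or more above the remaining library, and 0 stood that far below. Rgs16, outside these counts, was above in each case. The share of all tested genes past 2-fold against the remaining library alone was not computed, so nothing is read from these counts. Scaling on T cell marker genes was chosen after seeing the data. No paired analysis was possible with 1 tumour library, which also carries no replicate number. The tumour library's depth limits what could be seen for Cd69, S1pr4, Gpr183, Rgs10 and Rgs16.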
